A study of Mus musculus with 9 samples.

Results

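The genes described here belong to glycolysis and the lactate shuttle. They are Slc2a1, Hk1, Hk2, Pfkm, Pkm, Ldha, Ldhb, Slc16a1, Slc16a3 and Slc16a8, 10 of the 37725 genes in the count matrix, and they were chosen by name for their steps from glucose entry to lactate transport, by a rule that uses no measured value. Earlier results of these data were, however, known when these genes were chosen. Single cells from both retinas of each of 9 mice were barcoded and sequenced with Parse Biosciences WT V2 chemistry, which tags each captured RNA molecule with a unique molecular identifier (UMI). All 9 mice carried RPE65-ERT2-Cre.miR-211fl.miR-204fl, that is, floxed alleles of both microRNA genes and a Cre recombinase that the Rpe65 promoter drives in the retinal pigment epithelium (RPE) and that tamoxifen activates. From postnatal day 28, on 5 consecutive days, the 4 control mice (S01 to S04) were injected intraperitoneally with corn oil alone, and the 5 double knockout mice (dKO, S05 to S09) with 75 mg/kg tamoxifen in corn oil. The labels give 6 months as the time for all mice, and retina peeled from the eye cup as the tissue. By the labels no control mouse received tamoxifen, so the effects of tamoxifen and of the deletion cannot be told apart here, and the matrix holds neither microRNA gene, so the deletion could not be checked in these cells. The paper, unlike these labels, names Cre-negative mice given tamoxifen as its controls. It reports that their retinal phenotypes did not differ from those of Cre-positive mice given vehicle. The matrix holds 31089 cells, with 15079143 UMIs in the shallowest mouse (S05) and 66528160 in the deepest (S06).

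Glycolysis splits glucose into pyruvate, which mitochondria oxidize or lactate dehydrogenase reduces to lactate, and monocarboxylate transporters carry lactate across cell membranes. Photoreceptors are known for releasing much of their glucose carbon as lactate even where oxygen is plentiful, and for drawing that glucose through the RPE from the vessels of the choroid. In the lactate shuttle the RPE and Müller glia take lactate up and can burn it, so the isoforms of the dehydrogenase and of the transporters differ between the cells that make lactate and those that use it.

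The microRNAs deleted in dKO mice are shown first because their shared seed, bases 2 to 8 in capitals, sets which sites were searched in the glycolysis genes. Both were found in the RefSeq table on GRCm38.p6, miR-211-5p at chr7:64205831-64205852 and miR-204-5p at chr19:22750610-22750631, both on the plus strand and both 22 bases long.
mmu-miR-204-5p: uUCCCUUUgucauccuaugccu
mmu-miR-211-5p: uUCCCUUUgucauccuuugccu

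All 10 genes have an annotated 3′ untranslated region in GENCODE M39 (GRCm39), and 2 of the 10 hold a match to the shared seed, Slc2a1 at chr4:118995178-118995184 and Slc16a1 at chr3:104562911-104562917, both on the plus strand. Each match is of the kind called an 8mer, in which an A follows the 7 matched bases, which stand in capitals. The same search found a match in 4459 of 20955 genes (21.3%) and in 14 of 43 other genes of the pathway. A match is a description of the letters and not a site shown to act.
Slc2a1 site: ttataaaacctAAAGGGAattttccctgc
Slc16a1 site: ggagaagcagaAAAGGGAaggaaaagagg

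Cells were assigned to types by UMIs of marker genes, none of which is among the 10 genes. Rods numbered 16181 cells, cones 2012, Müller glia 2084, RPE cells 320 and vascular endothelium 194, and UMIs were summed over the cells of each type in each mouse. Levels are given as UMIs per 1000000 UMIs of the same sum (CPM). Sums of at least 10 cells were compared, which leaves 4 control and 5 dKO mice for rods, cones and Müller glia but 3 control and 4 dKO mice for RPE and endothelium, since S04 had 0 RPE cells and 4 endothelial cells and S05 had 1 and 3. Markers that the assignment did not use were highest in their own type for all 5 rod, all 4 cone, all 5 RPE and all 4 endothelial genes. Of the 4 Müller glia genes only Abca8a was, since Car14 and Sox9 were higher in RPE (173% and 101% of the Müller level) and Vim in endothelium (200%). In rods the cone gene Thrb stood at 76.8% of its level in cones, and the other 3 cone genes at 0.838% to 1.47%.

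Some libraries stand apart from the others, which bears on what follows. S04, S05 and S07 had Y-linked RNA at 404 to 424 CPM and Xist at 35.4 to 51.8 CPM, whereas the other 6 mice had Xist at 1377 to 1570 CPM, and rods made up 86.9%, 72.7% and 79.5% of their cells against 33.3% to 46.7% in the other mice. The RPE sum of S07 rests on 11 cells and 35986 UMIs, so that 1 UMI equals 27.8 CPM, and 5 of these cells (45.5%) carried Xist without Y-linked RNA, compared with 1.72% of the Müller glia of S07. Y-linked RNA stood in 4 of the 11 RPE cells (36.4%), compared with 93.1% of those Müller glia. In Xist-high mice Y-linked RNA stood in 19.3%, 7.14%, 9.43%, 12.7% and 19.0% of the RPE cells of S01, S02, S03, S06 and S08. Their Müller glia had 6.48%, 2.76%, 5.20%, 5.80% and 5.08%, while S09 had 1.96% in RPE and 5.36% in Müller glia. The RPE cells of S09 (51 cells) also had few UMIs, with a median of 2665 against 16320 to 28055 in S01, S02, S03, S06 and S08. Müller glia of S01, S02, S03, S06 and S08 had medians of 14000 to 19019 UMIs. Deeper cells show Y-linked RNA more readily, so its shares in RPE and Müller glia are not at equal depth. One animal number stands in the labels of both S06 and S07. Their sex-linked RNA differs, however, as between a female and a male. Xist was 1377 CPM in S06 and 46.5 CPM in S07, and Y-linked RNA 4.43 and 404 CPM. For the 10 genes RPE against rods and dKO against control in RPE are therefore given with and without S07, and for some dKO values of the other types also without S04, S05 and S07. All 31089 full cell barcodes were distinct, so none could be shared between mice, which leaves mixing of RNA undecided. Later-round wells and sublibrary were also used by a cell of a different mouse for 10968 cells. Whether RNA passed between mice was not tested. The share of cells of each type did not differ between control and dKO mice beyond the spread, with an exact two-sided permutation p, adjusted over the 5 types, of 0.952 for each type.

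Slc2a1 encodes the glucose transporter of the blood-retinal barrier, at the vessel wall and in the RPE. Its level in endothelium ran from 1379 CPM through a median of 2351 to 3748 CPM over 7 mice, and in RPE from 695 through 826 to 1219 CPM. In Müller glia it ran from 232 through 258 to 353 CPM over 9 mice, in rods from 39.1 through 50.04 to 58.8 CPM and in cones from 30.5 through 46.1 to 56.2 CPM. Endothelium stood above RPE, RPE above Müller glia and Müller glia above both photoreceptors with no overlap of the ranges, and rods and cones overlapped throughout. Against rods, the log2 fold change of Slc2a1 was 5.53 in endothelium (standard error, SE, 0.16, adjusted p 2.63e-28), 4.28 in RPE (SE 0.16, adjusted p 4.41e-25) and 2.49 in Müller glia (SE 0.14, adjusted p 2.56e-19), each higher in every mouse compared. Each SE is the absolute log2 fold change divided by the square root of the F statistic, so it need not match p. RPE was below endothelium by a log2 fold change of -1.25 (SE 0.15, adjusted p 1.93e-09, lower in 7 of 7 mice), and cones and rods did not differ (log2 fold change -0.14, adjusted p 0.455). Without S07 the RPE mean went from 903 ± 177 CPM (SD, n = 7) to 938 ± 165 CPM (SD, n = 6). Rods held 5.59% of the RPE level of Slc2a1 while the 5 RPE check markers together stood at 0.451% of theirs, and 1.96% of the endothelial level while the 4 endothelial check markers stood at 0.383%.

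**Figure D1:**
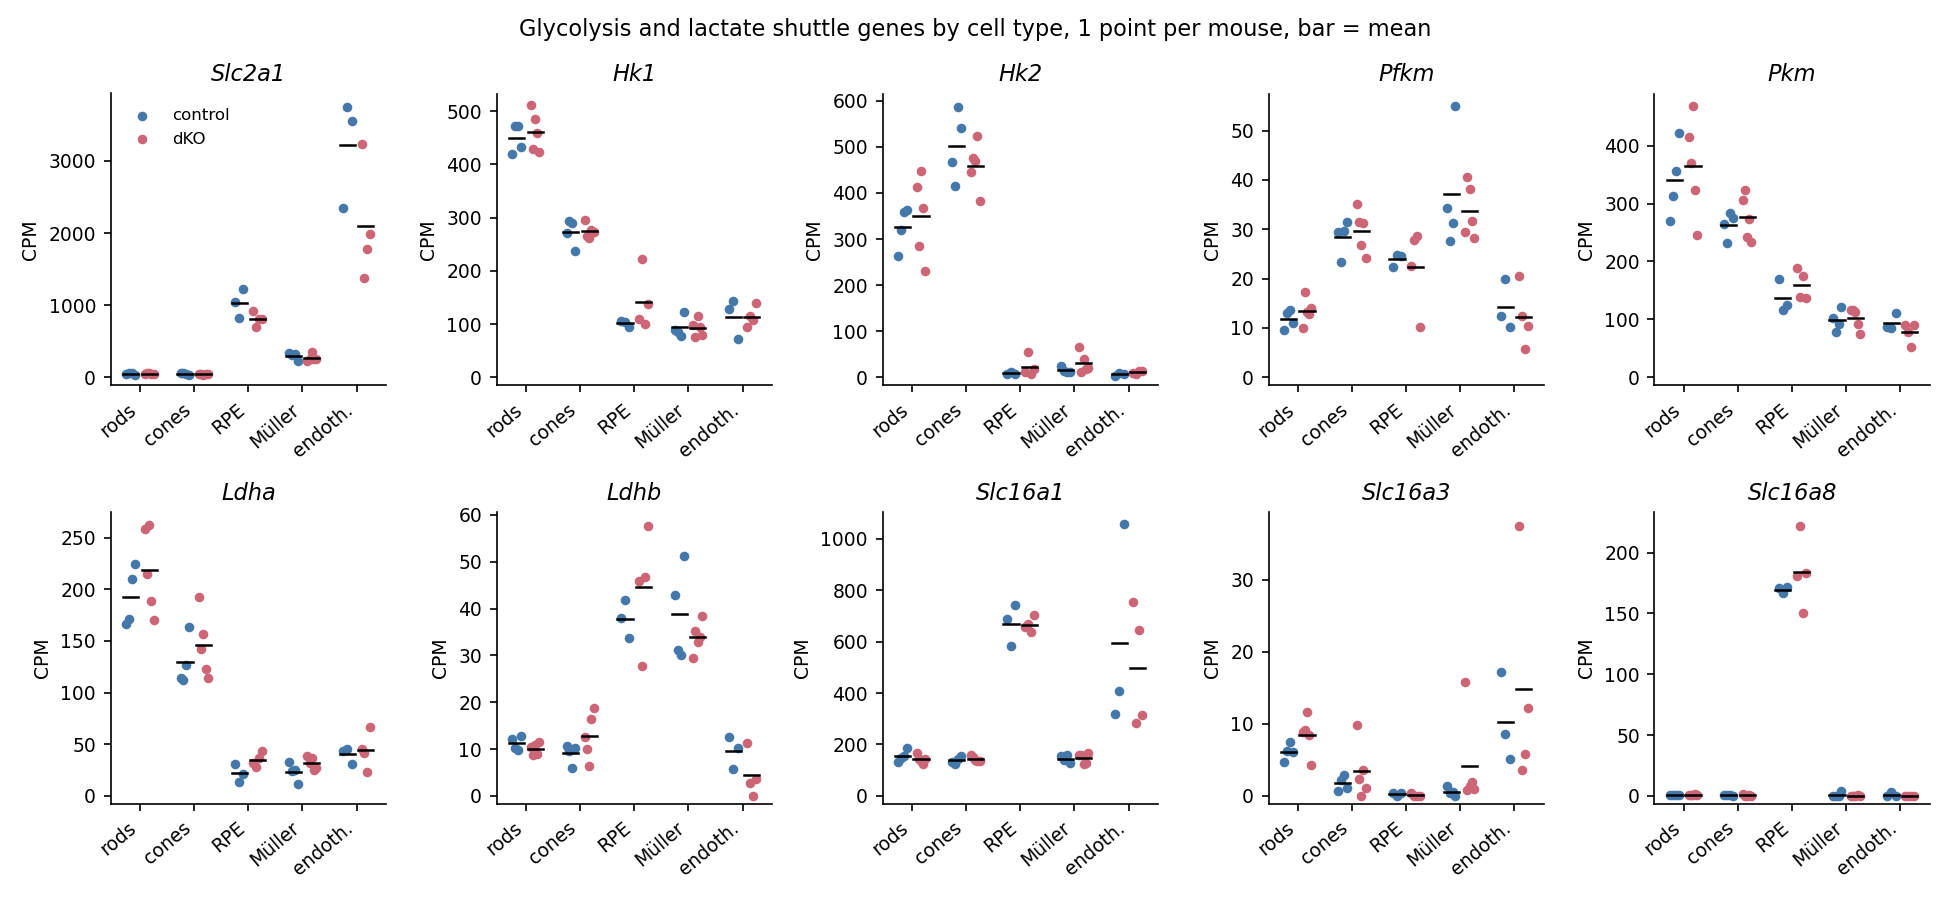
Level of each of the 10 genes in CPM (vertical axis, linear, a separate scale per gene) in rods, cones, RPE, Müller glia and endothelium (horizontal axis), with 1 point per mouse, control in blue and dKO in red, and a black bar at the mean of each group. Of these 5 types Slc2a1 is highest in endothelium (1379 to 3748 CPM) and Slc16a8 stands near 0 in the 4 other than RPE, and control and dKO points overlap in every panel and type.

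The hexokinases trap glucose in the cell as glucose 6-phosphate, Hk1 as the form most tissues share and Hk2 as the form that rises in cells with high glycolytic flux. Hk1 ran from 420 through 459 to 511 CPM in rods and from 237 through 272 to 295 CPM in cones over 9 mice. It ran from 94.5 through 105 to 222 CPM in RPE, from 71.9 through 116 to 142 CPM in endothelium and from 76.5 through 89.5 to 122 CPM in Müller glia. All rod sums lay above all cone sums, and all cone sums above those of the 3 other types, which overlapped one another. Against rods, Hk1 changed on the log2 scale by -0.70 in cones (SE 0.08, adjusted p 2.67e-09), -1.78 in RPE, -1.99 in endothelium and -2.33 in Müller glia, lower in every mouse compared. RPE exceeded Müller glia by 0.55 on the log2 scale (SE 0.10, adjusted p 9.63e-06, higher in 7 of 7 mice) and did not differ from endothelium at the threshold (log2 fold change 0.21, adjusted p 0.116), where Hk1 was lower in RPE in 4 of 7 mice, against the fitted sign, and library-size scaling gave -0.03. That last comparison passed the threshold under the stricter gate (0.35) and without S02 (0.30). The highest RPE value, 222 CPM, is that of S07 (8 UMIs), and the RPE mean of 125 ± 45.1 CPM (SD, n = 7) became 108.6 ± 15.1 CPM (SD, n = 6) without it.

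Hk2 was higher in the photoreceptors than in the other 3 of the 5 types compared, though not than in every gated type, since 385 cells gated as fibroblasts held 346 ± 131 CPM (SD, n = 6) and 73 gated as microglia 257 ± 125 CPM (SD, n = 3), in the range of rods. Its level ran from 383 through 468 to 587 CPM in cones and from 232 through 359 to 448 CPM in rods. In Müller glia it ran from 10.5 through 17.1 to 65.7 CPM, in RPE from 6.50 through 10.9 to 55.6 CPM and in endothelium from 3.12 through 8.55 to 14.5 CPM. Cones exceeded rods in 9 of 9 mice, although the ranges overlapped, and the lowest rod sum was above the highest sum in RPE, Müller glia and endothelium. On the log2 scale Hk2 differed by 0.57 for cones against rods (SE 0.15, adjusted p 0.00150), -4.02 for Müller glia, -4.70 for RPE and -5.20 for endothelium (SE 0.29, adjusted p 2.82e-19). Hk2 made up 63.4% ± 3.78 (SD, n = 9) of the Hk1 and Hk2 UMIs in cones and 42.2% ± 3.99 (SD, n = 9) in rods. The share was 19.1% ± 9.62 (SD, n = 9) in Müller glia, 9.998% ± 4.86 (SD, n = 7) in RPE and 7.75% ± 3.15 (SD, n = 7) in endothelium. Beside the rod RNA in these sums, Hk2 in RPE amounted to 4.92% of its rod level and the 5 rod check markers to 2.46% of theirs, in Müller glia to 7.09% and 3.52%, and in endothelium to 2.75% and 1.83%. Single rod check markers ran from 1.18% (Reep6) to 3.19% (Cngb1) in RPE. They ran from 2.96% (Pde6a) to 7.41% (Reep6, above Hk2) in Müller glia, and from 1.63% (Reep6) to 2.58% (Guca1b) in endothelium. How much of the Hk2 in these types came from rods was not tested. Without S07, whose 2 UMIs give 55.6 CPM, the RPE mean of Hk2 went from 16.7 ± 17.6 CPM (SD, n = 7) to 10.2 ± 4.21 CPM (SD, n = 6). RPE was below Müller glia with a log2 fold change of -0.68 (SE 0.27, adjusted p 0.0273, lower in 5 of 7 mice), a call lost without S01 (-0.48), S03 (-0.64) or S08 (-0.60) and without the top 5% of cells by UMIs (-0.58).

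Pfkm encodes the muscle form of phosphofructokinase, the committed step of glycolysis, and it had low counts in all 5 types. Müller glia held 27.7 through 31.8 to 55.1 CPM, cones 23.3 through 29.6 to 35.2 CPM and RPE 10.1 through 24.5 to 28.6 CPM. Endothelium held 5.81 through 12.3 to 20.6 CPM and rods 9.65 through 13.1 to 17.3 CPM. The ranges of Müller glia and cones lay above that of rods, and endothelium and rods overlapped. Gated amacrine cells (67.2 CPM) and ganglion cells (69.8 CPM) had mean Pfkm levels above every sum of the 5 types. Against rods the log2 fold change of Pfkm was 1.41 in Müller glia (SE 0.12, adjusted p 6.47e-14), 1.2 in cones (SE 0.12, adjusted p 2.29e-11) and 1.07 in RPE (SE 0.15, adjusted p 2.73e-08, higher in 6 of 7 mice). Endothelium and rods did not differ (0.05, adjusted p 0.924). RPE was below Müller glia by -0.34 (adjusted p 0.0405, lower in 7 of 7 mice), which kept its call in 10 of 19 alternatives and lost it without S01 (-0.34), S03 (-0.37), S06 (-0.27) or S09 (-0.23). The only dKO RPE sum outside 22.6 to 28.6 CPM was S09 at 10.1 CPM.

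Pkm encodes the pyruvate kinase of most tissues, the last step before pyruvate, and its counts do not separate its alternatively spliced forms. Its level ran from 246 through 356 to 469 CPM in rods and from 232 through 274 to 324 CPM in cones. In RPE it ran from 117 through 139 to 188 CPM, in Müller glia from 75.6 through 102 to 122 CPM and in endothelium from 52.3 through 87.3 to 110 CPM. Photoreceptor sums all lay above those of the other 3 types, the highest of which was 188 CPM in RPE, but 538 cells gated as ganglion cells held 345 ± 64.9 CPM (SD, n = 8), in the range of rods. Pkm had a log2 fold change against rods of -0.90 in RPE (SE 0.12, adjusted p 2.05e-08), -1.81 in Müller glia and -1.99 in endothelium, and RPE exceeded Müller glia by 0.91 (SE 0.12, adjusted p 2.07e-08) and endothelium by 1.09, in 7 of 7 mice each. Cones were below rods in 9 of 9 mice (-0.34, SE 0.10, adjusted p 0.00543), a call lost with control mice only (-0.35) and without S04, S05 and S07 (-0.17).

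Lactate dehydrogenase joins pyruvate and lactate, with Ldha known as the subunit favored in lactate-making tissues and Ldhb as that of tissues that oxidize lactate. Ldha ran from 166 through 210 to 262 CPM in rods and from 112 through 127 to 193 CPM in cones. It ran from 23.2 through 43.7 to 66.4 CPM in endothelium, from 13.3 through 30.5 to 43.6 CPM in RPE and from 11.8 through 26.7 to 38.5 CPM in Müller glia. Rods and cones overlapped in range but rods were higher in 9 of 9 mice, and both stood above all sums of the other 3 types compared, which overlapped. For Ldha the log2 fold change against rods was -0.56 in cones (SE 0.11, adjusted p 4.82e-05), -2.20 in endothelium, -2.43 in RPE and -2.77 in Müller glia (SE 0.13, adjusted p 5.79e-22). RPE did not differ from endothelium (-0.23, adjusted p 0.323) or from Müller glia (0.33, adjusted p 0.0688) at the threshold. In CPM, Ldha was lower in RPE than in Müller glia in 5 of 7 mice, against the sign of the fitted value. The comparison with endothelium passed with library-size scaling (-0.49), and that with Müller glia passed without S02 (0.44), without S03 (0.42), without the top 5% of cells by UMIs (0.37) and without the cells richest in rod RNA (0.45). Ldha in RPE amounted to 14.2% of its rod level and in Müller glia to 13.6%, above the 2.46% and 3.52% of the rod check markers.

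Ldhb was highest in RPE and Müller glia among the 5 types. It ran from 27.8 through 41.9 to 57.7 CPM in RPE and from 29.4 through 33.9 to 51.1 CPM in Müller glia, from 5.97 through 10.1 to 18.7 CPM in cones, from 8.75 through 10.4 to 12.8 CPM in rods and from 0 through 5.70 to 12.5 CPM in endothelium. RPE and Müller glia overlapped with each other and lay above every sum of cones, rods and endothelium, while mean levels near theirs were found in gated amacrine cells (29.7 CPM), ganglion cells (41.8 CPM) and microglia (56.6 CPM). Against rods the log2 fold change of Ldhb was 2.27 in RPE (SE 0.16, adjusted p 8.86e-16, higher in 7 of 7 mice) and 1.75 in Müller glia (SE 0.14, adjusted p 2.39e-14, higher in 9 of 9 mice), and cones did not differ from rods (0.10, adjusted p 0.652). RPE exceeded Müller glia by 0.52 (SE 0.15, adjusted p 0.00370, higher in 5 of 7 mice), a call lost with library-size scaling (0.29) and with control mice only (0.31), and endothelium by 2.98 (SE 0.28, adjusted p 5.29e-12, higher in 7 of 7 mice). Endothelium fell below rods (-0.71, adjusted p 0.0434, lower in only 4 of 7 mice) on 25 UMIs in all, and lost that call in 8 of 19 alternatives, among them leaving out S02 (-0.72), S04 (-0.70), S07 (-0.42), S08 (-0.56) or S09 (-0.53).

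Within each sum, Ldha made up 95.01% ± 1.11 (SD, n = 9) of the Ldha and Ldhb UMIs in rods and 92.3% ± 3.34 (SD, n = 9) in cones. The share was 87.2% ± 9.69 (SD, n = 7) in endothelium, 43.5% ± 10.6 (SD, n = 9) in Müller glia and 40.8% ± 8.13 (SD, n = 7) in RPE. In RPE the values were 44.6%, 24.1% and 38.9% in control S01, S02 and S03, and 41.1%, 50%, 44.2% and 43% in dKO S06, S07, S08 and S09. S02 was the lowest and S07, with 1 UMI of each gene, the highest, and the groups overlapped because S01 stood above S06, S08 and S09. Without S07 the mean was 39.3% ± 7.73 (SD, n = 6). No test was made on the shares, which describe pairs of the chosen genes.

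**Figure D2:**
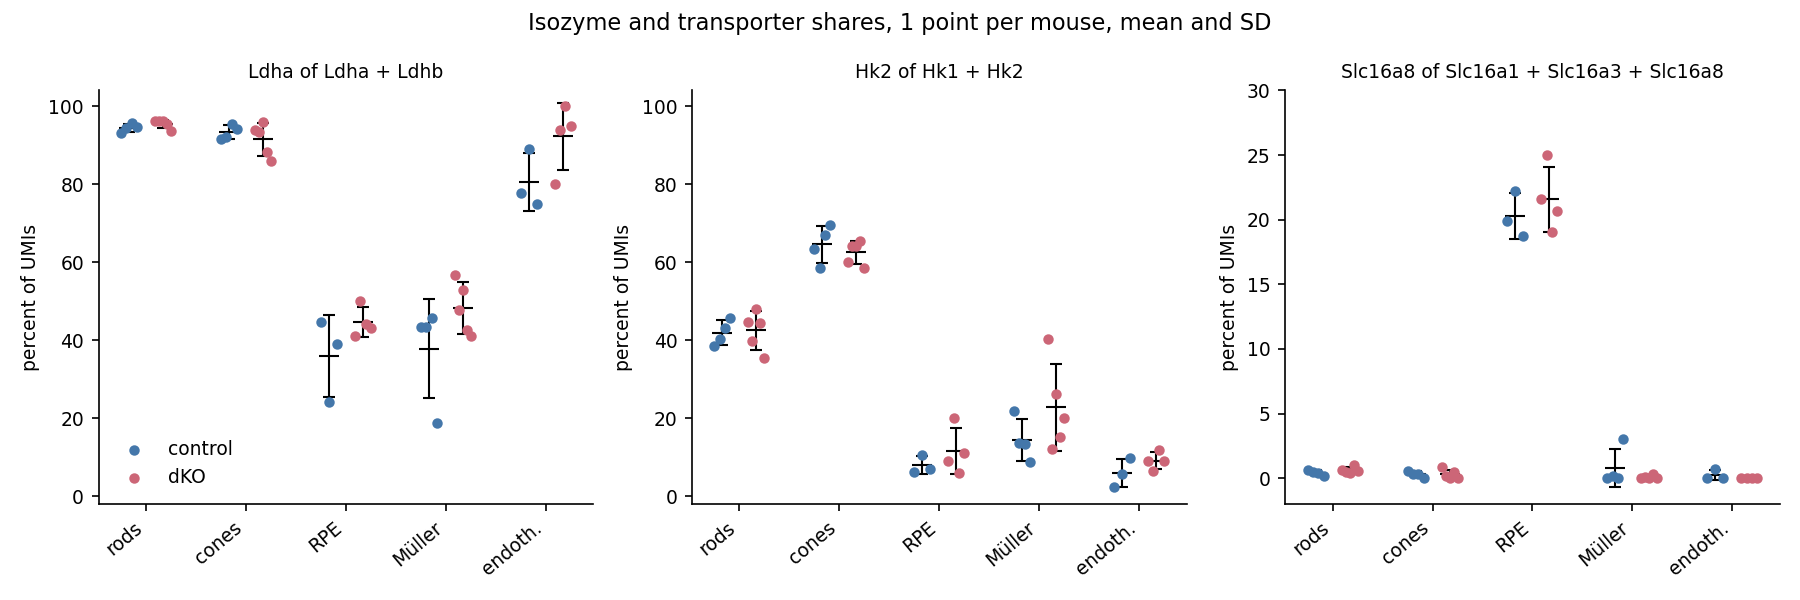
Share of UMIs in percent (vertical axis) for Ldha of Ldha plus Ldhb, Hk2 of Hk1 plus Hk2, and Slc16a8 of Slc16a1 plus Slc16a3 plus Slc16a8, in each cell type (horizontal axis), with 1 point per mouse, control in blue and dKO in red, and black marks for the mean and SD of each group. Ldha makes up 95.01% in rods and 40.8% in RPE on average, of these 5 types Hk2 is the larger part in cones alone (63.4%) and Slc16a8 reaches 21.0% in RPE alone.

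The promoters were read because Hk1, Pkm and Ldha were all higher in rods than in the other 4 types. RefSeq promoters on GRCm38.p6, 250 bases before and 50 bases after each start, were found for 10 of 10 genes, 16 promoters in all. They were searched on both strands for CACGTG, the E-box that factors such as Myc can bind, for ACGTG, the core of hypoxia response elements, and for TAATCC, the core bound by the photoreceptor factors Crx and Otx. These motifs were chosen after the levels had been seen, and each CACGTG also counts as 2 matches of ACGTG, 1 per strand. CACGTG stood in 3 of the 16 promoters (7.15% of all 32851 promoters hold it), ACGTG in 9 of 16 (19.6%) and TAATCC in 2 of 16 (7.06%). The 3 with CACGTG belong to Ldha, to Slc16a1, which was higher in RPE and endothelium than in rods, and to Pfkm, which was lower in rods than in cones, Müller glia and RPE, and no promoter of Hk1 or Pkm holds it. The first Ldha promoter, at chr7:46845554-46845853 on the plus strand, holds 2 matches of CACGTG and 5 of ACGTG, in capitals, with a GC content of 67.3%, and is shown beside that of Slc16a8, at chr15:79254699-79254998 on the minus strand, which holds none of the 3 motifs and has a GC content of 58.3%. No match says only that these letters are not in this window.
Ldha promoter: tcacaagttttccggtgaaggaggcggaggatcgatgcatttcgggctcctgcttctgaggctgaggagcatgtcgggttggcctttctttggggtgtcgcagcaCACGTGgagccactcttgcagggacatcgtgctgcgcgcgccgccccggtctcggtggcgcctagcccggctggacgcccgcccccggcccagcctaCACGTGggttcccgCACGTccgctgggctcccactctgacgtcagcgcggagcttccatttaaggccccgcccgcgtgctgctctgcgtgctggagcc
Slc16a8 promoter: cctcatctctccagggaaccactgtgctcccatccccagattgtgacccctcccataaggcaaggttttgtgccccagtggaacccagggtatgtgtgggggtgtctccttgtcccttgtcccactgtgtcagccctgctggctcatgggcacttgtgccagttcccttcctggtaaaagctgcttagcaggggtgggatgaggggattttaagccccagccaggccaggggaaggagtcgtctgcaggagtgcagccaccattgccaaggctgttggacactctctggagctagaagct

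Among the monocarboxylate transporters, Slc16a8 encodes the form known from the basal side of the RPE, Slc16a1 a form found in many tissues and on the apical side of the RPE, and Slc16a3 a low-affinity form of lactate-exporting cells. Slc16a8 was 171, 167 and 171 CPM in the RPE of control S01, S02 and S03, and 181, 222, 150 and 183 CPM in that of dKO S06, S07, S08 and S09. The RPE values of control mice lay within those of dKO mice, with S07 highest (8 UMIs) and S08 lowest. In rods Slc16a8 stood at 0.770 ± 0.313 CPM (SD, n = 9), in Müller glia at 0.520 ± 1.29 CPM (SD, n = 9), in cones at 0.440 ± 0.464 CPM (SD, n = 9) and in endothelium at 0.407 ± 1.08 CPM (SD, n = 7), on 68, 5, 10 and 1 UMIs. These levels were 0.433%, 0.292%, 0.248% and 0.229% of the RPE level, and the 5 RPE check markers together were at 0.451%, 0.376%, 0.342% and 0.484% of theirs. Single check markers varied about these sums, in Müller glia from 0.0752% for Slc6a20a and 0.187% for Slc26a7, both below Slc16a8, to 1.19% for Rdh5 and 1.79% for Pmel, and in endothelium from 0.0927% for Slc26a7, the only 1 of the 5 below Slc16a8, to 1.12% for Rdh5. The Müller glia mean of Slc16a8 rests largely on S04 (3.93 CPM, 1 UMI), against at most 0.229 CPM in other controls and 0.381 CPM in dKO mice. The endothelial mean rests on S02 alone (2.85 CPM, 1 UMI). The place of Slc16a8 among single markers in these types therefore depends on 1 UMI each. Whether the Slc16a8 in these 4 types came from RPE cells was not tested. The log2 fold change of RPE against rods was 7.98 for Slc16a8 (SE 0.19, adjusted p 1.87e-30, higher in 7 of 7 mice), and without S07 it was 8.05.

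Slc16a1 was 687, 582 and 742 CPM in the RPE of control S01, S02 and S03, and 656, 667, 638 and 705 CPM in that of dKO S06, S07, S08 and S09. The dKO values all lay between the lowest control, S02, and the highest, S03. In endothelium Slc16a1 ran from 282 through 408 to 1058 CPM, with S03, S06 and S08 at or above 645 CPM and the other 4 mice at or below 408 CPM. Rods held 123 through 143 to 184 CPM, Müller glia 125 through 156 to 168 CPM and cones 122 through 140 to 159 CPM, and these 3 types overlapped throughout. Against rods the log2 fold change of Slc16a1 was 2.40 in RPE (SE 0.15, adjusted p 3.65e-17, higher in 7 of 7 mice) and 1.81 in endothelium (SE 0.15, adjusted p 1.90e-13, higher in 7 of 7 mice), while Müller glia (0.02, adjusted p 0.894) and cones (-0.04, adjusted p 0.860) did not differ from rods. RPE exceeded endothelium by 0.59 (SE 0.16, adjusted p 0.00168) but in only 4 of 7 mice, and that call was lost with control mice only (0.58). Slc16a8 made up 21.0% ± 2.17 (SD, n = 7) of the UMIs of the 3 transporters in RPE, 20.4% without S07, and 0.0972% to 0.513% on average in the other types. Of these averages, that of Müller glia rests largely on S04 (3.03%, 1 of 33 UMIs). That of endothelium rests on S02 alone (0.680%, 1 of 147 UMIs).

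Slc16a3 was low in all 5 types. Endothelium held 3.53 through 8.55 to 37.5 CPM, rods 4.30 through 7.52 to 11.6 CPM, cones 0 through 2.19 to 9.84 CPM, Müller glia 0 through 0.959 to 15.9 CPM, and RPE 0 to 0.437 CPM on 3 UMIs in all. Rods and endothelium each exceeded RPE in 7 of 7 mice with no overlap of the ranges. The log2 fold change of RPE against endothelium was -5.21 (SE 0.79, adjusted p 4.08e-07). Müller glia also exceeded RPE in 7 of 7 mice, although their ranges overlapped, as did those of all other pairs of types. The log2 fold change of Slc16a3 against rods was -4.33 in RPE (SE 0.72, adjusted p 1.45e-06), -2.39 in Müller glia and -1.60 in cones, and the RPE level was 2.27% of the rod level beside 2.46% for rod check markers together. Endothelium passed the threshold above rods (0.87, adjusted p 0.0483, higher in 4 of 7 mice) but kept that call in only 6 of 19 alternatives, and lost it without S01 (0.63), S02 (0.90), S04 (0.89), S05 (0.76), S06 (0.41) or S09 (0.81).

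The levels were also divided by transcript length in kilobases, as a description. A UMI tags 1 captured molecule, so its count need not grow with transcript length. Whether this division makes levels of different genes comparable was not tested. On the length of the Ensembl canonical transcript, Pkm led in rods with 145 ± 29.97 CPM per kb (SD, n = 9), followed by Ldha at 131, Hk1 at 107, Hk2 at 43.4, Slc16a1 at 32.0 and Slc2a1 at 11.4 CPM per kb. In RPE Slc2a1 led with 203 ± 39.7 CPM per kb (SD, n = 7), followed by Slc16a1 at 145, Slc16a8 at 98.3 and Pkm at 61.4 CPM per kb, and in endothelium Slc2a1 stood at 580 and Slc16a1 at 117 CPM per kb. In Müller glia the first 3 were Slc2a1 at 64.0, Pkm at 41.1 and Slc16a1 at 31.8 CPM per kb. The canonical length was chosen after both sets of values had been seen. Divided by all annotated exons instead, rods had Hk1 at 52.0, Ldha at 43.8, Hk2 at 41.0, Slc16a1 at 27.9 and Pkm at 26.4 CPM per kb, so Pkm moved from rank 1 to rank 5. Müller glia on that length had Slc2a1 at 60.6, Slc16a1 at 27.7 and Hk1 at 10.6 CPM per kb as the first 3, with Pkm moving from rank 2 to rank 5, while the first 3 genes in RPE and the first 2 in endothelium were in the same order on both lengths. Per-kilobase order in rods and Müller glia thus depends on the length taken.

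The whole table puts these differences in proportion, since types differ in most genes. Over 14107 genes, tested by edgeR at an adjusted p below 0.05, 34% were higher and 39.4% lower in RPE than in rods, and of the 10 genes 5 were higher and 5 lower. Müller glia had 36.6% higher and 39.5% lower than rods, and of the 10 genes 3 and 6. Among those 6 are Slc16a8, on 5 UMIs in Müller glia and 68 in rods, and Slc16a3, on 40 UMIs in Müller glia. Endothelium had 29.9% higher and 38.8% lower than rods, and of the 10 genes 3 and 5. Cones had 23.8% higher and 23.8% lower than rods, and of the 10 genes 2 and 4. RPE had 29.6% higher and 33.7% lower than Müller glia, and of the 10 genes 6 and 2, and it had 31.4% higher and 26.7% lower than endothelium, and of the 10 genes 5 and 2. Without S07 RPE against rods kept sign and call for the 10 genes, with log2 fold changes of 4.50 for Slc2a1, -1.70 for Hk1, -4.64 for Hk2, 1.16 for Pfkm, -0.73 for Pkm, -2.32 for Ldha, 2.40 for Ldhb, 2.55 for Slc16a1, -4.11 for Slc16a3 and 8.05 for Slc16a8. All 10 genes passed the count filter, which was applied over the 5 types together, and Slc16a8 passed it only through its level in RPE. These counts describe the genes and support nothing about them as a set.

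**Figure D3:**
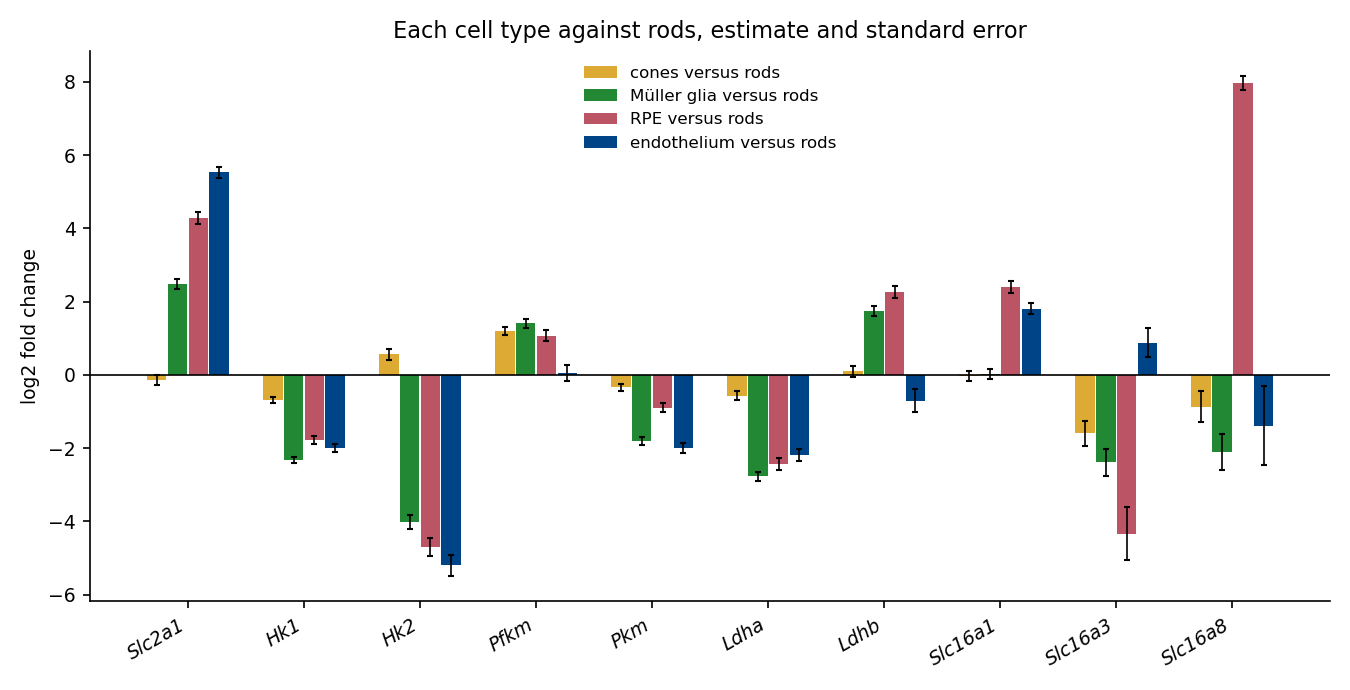
Log2 fold change (vertical axis) of each of the 10 genes (horizontal axis) in cones, Müller glia, RPE and endothelium against rods, as bars with the SE derived from the F statistic. Slc2a1, Slc16a1 and Slc16a8 reach 4.28, 2.40 and 7.98 in RPE, and Hk1, Pkm and Ldha are below 0 in all 4 types, while the bars of Slc16a3 in RPE and of Slc16a8 in the 3 other types rest on few UMIs.

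Scaling moved the center of some comparisons. With library size in place of TMM (the trimmed mean of M values), the median log2 fold change of all genes went from -0.15 to -0.41 for RPE against rods, from -0.09 to -0.32 for RPE against Müller glia and from 0.13 to -0.13 for RPE against endothelium. The share of calls that were higher went from 46.7% to 35.1% for RPE against Müller glia (3325 higher and 6138 lower) and from 54.0% to 42.2% for RPE against endothelium (3501 higher and 4793 lower), and by less for RPE against rods, from 46.3% to 37.6% (4069 higher and 6759 lower). With DESeq2 in place of edgeR, which changes both the scaling and the model, that share went from 48.1% to 54.1% for Müller glia against rods, from 43.5% to 50.5% for endothelium against rods, from 46.7% to 40.9% for RPE against Müller glia and from 54.0% to 47.0% for RPE against endothelium. With DESeq2 the median went from -0.08 to 0.05 for Müller glia against rods, from -0.24 to -0.06 for endothelium against rods and from 0.13 to -0.02 for RPE against endothelium. In the comparisons of types Hk1 in RPE against endothelium was the only 1 of the 10 genes to change sign with library size or DESeq2, as given above.

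The other 43 genes of the pathway, in 5 lists chosen with the 10 genes, place them among their neighbours. Of these, 38 were tested, with 17 higher and 14 lower in RPE than in rods (median log2 fold change 0.19, all genes -0.15), 17 and 16 in Müller glia (0.07, all genes -0.08), 6 and 25 in endothelium (-1.28, all genes -0.24), and 6 and 15 in cones (-0.23, all genes -0.04). By list, those higher and lower in RPE than in rods were 2 and 2 of 4 tested for glucose entry and hexokinases (median 1.25), 1 and 5 of 7 for phosphofructokinases and their regulators (-0.85), 4 and 2 of 10 for lower glycolysis (0.19), 7 and 4 of 13 for lactate and pyruvate handling (0.74) and 3 and 1 of 4 for regulators (1.17). Among glucose entry genes, the transporter gene Slc2a12 was higher in RPE than in rods by 6.63 (SE 0.22, adjusted p 4.36e-26) and than in Müller glia by 3.31, and the hexokinase-like gene Hkdc1 was higher than in rods by 5.79 in Müller glia (SE 0.17, adjusted p 6.64e-28) and by 4.14 in RPE. Slc2a3, a high-affinity glucose transporter of neurons, was below rods by -2.04 in RPE and -1.44 in endothelium, and lost both calls without the top 5% of cells by UMIs (-0.91 and -0.26). In Müller glia Slc2a3 was above rods, at 3.68 against 1.56 CPM per kb on average, as all 4 tested genes of this list passed as higher there. Of the enzymes that make and break the activator of phosphofructokinase, Pfkfb2 was below rods in all 4 types (cones -1.09, RPE -2.76, Müller glia -3.66, endothelium -4.00), and Pfkfb3 was above rods in endothelium (2.47, SE 0.29, adjusted p 1.44e-09) and below in RPE (-2.05).

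In the lower part of glycolysis, 9 of the 10 genes tested were below rods in endothelium and 0 above (median -1.90, all genes -0.24), where 38.8% of all genes were below and 29.9% above. In RPE 10 of 10 were higher than in endothelium (median 2.08, all genes 0.13), as were 31.4% of all genes. Pgk1, which makes the first ATP of the pathway, exceeded endothelium by 4.32 in RPE (SE 0.30, adjusted p 5.12e-16) and Müller glia by 2.76. Eno2, the neuronal enolase, was below rods by -2.24 in RPE, -1.89 in Müller glia and -4.23 in endothelium, and above rods in cones (0.62), whereas Eno1 was above rods in Müller glia (1.59, SE 0.15, adjusted p 4.37e-12). Bsg, the chaperone that brings the lactate transporters to the membrane, was above rods by 2.84 in RPE (SE 0.19, adjusted p 6.83e-17) and 3.22 in endothelium. Nxnl1, the gene of a rod-derived cone viability factor that acts through glucose entry, was below rods in all 4 types, from -1.34 in cones to -5.70 in endothelium. Pdk4, a pyruvate dehydrogenase kinase, was above rods by 6.50 in RPE (SE 0.51, adjusted p 4.73e-14) and 6.59 in endothelium. Of the regulators, Epas1 was below rods by -4.13 in cones and above by 3.30 in endothelium, Hif1a was below rods in all 4 types, from -1.53 in RPE to -2.32 in Müller glia, and Txnip, a brake on glucose uptake, was above rods in RPE (4.22), Müller glia (4.93) and endothelium (6.89).

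Whether deletion in the RPE went with a change of these genes was asked in each type over mice. No gene of the 10 passed the threshold in any type. In RPE 9651 genes were tested and 1 passed (0.0104%), Cdh8, a cadherin outside the pathway, and 435 had an unadjusted p below 0.05, while DESeq2 gave 2 and limma-voom 0. Cdh8 was 6.99, 7.61 and 4.81 CPM in control S01, S02 and S03, and 27.8, 27.8, 28.6 and 32.4 CPM in dKO S06, S07, S08 and S09. All 4 dKO values lay above all 3 control values, that of S07 being 1 UMI, with a log2 fold change of 2.21 (SE 0.30, adjusted p 0.0139). The adjusted p of Cdh8 rose past the threshold without S01 (2.31), S03 (2.03) or S07 (2.22), with limma-voom (2.20), with Xist as a covariate (2.23), with S06 and S07 summed (2.22), under the stricter gate (1.58) and without the cells richest in rod RNA (2.14). The number of genes passing in RPE was 1 without S01 (not Cdh8), 17 without S02, 0 without S03 or S07, 5 without S06, 2 without S08 and 4 without S09. It was 56 with no filter on low counts, 12 with no minimum of cells and 6 without the top 5% of cells by UMIs. Cdh8 was 401 CPM in the Müller glia of S04 and ran from 30.1 to 145 CPM in rods.

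In rods 0 of 14044 genes passed (0%), with 364 at an unadjusted p below 0.05, and in cones 0 of 11409 (0%), with 222. In Müller glia 0 of 13002 passed (0%), with 227, and in endothelium 0 of 6792 (0%), with 216, all by edgeR. DESeq2 gave 0 in each of these 4 types, and limma-voom 0 except for 1 in cones. Leaving out S01 gave 1 gene each in rods, cones and Müller glia, leaving out S05 gave 1 in cones, and leaving out S08 gave 1 in endothelium. With no filter on low counts edgeR gave 128 in endothelium, 49 in cones, 5 in Müller glia and 0 in rods, and without S04, S05 and S07 it gave 1 in cones and 1 in Müller glia.

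In RPE, 9 of the 10 genes passed the count filter and Slc16a3 did not. Slc2a1 was 1043, 826 and 1219 CPM in control S01, S02 and S03, and 923, 695, 810 and 807 CPM in dKO S06, S07, S08 and S09. Of the dKO mice S06 alone stood above the lowest control, S02, and below the other 2 controls, and the log2 fold change of Slc2a1 was -0.37 (SE 0.24, unadjusted p 0.140, adjusted p 1.0), or -0.27 without S07. Ldha was 30.5, 13.3 and 21.4 CPM in control S01, S02 and S03, and 32.0, 27.8, 37.0 and 43.6 CPM in dKO S06, S07, S08 and S09. The dKO values lay above the controls except for S07, whose value is 1 UMI and falls below S01. The log2 fold change of Ldha was 0.69 (SE 0.28, unadjusted p 0.0262, adjusted p 1.0), or 0.71 without S07 (unadjusted p 0.0287), and it ran from 0.44 to 1.02 over 18 alternatives with no call. Ldhb was 37.9, 41.9 and 33.7 CPM in control and 45.9, 27.8, 46.8 and 57.7 CPM in dKO mice in the same order, again with S07 (1 UMI) the only dKO value among or below the controls. Its log2 fold change was 0.39 (SE 0.22, unadjusted p 0.101), or 0.42 without S07 (unadjusted p 0.0493, adjusted p 0.936). Slc16a1 (-0.05, SE 0.21) and Slc16a8 (0.03, SE 0.17), whose values per mouse stand above, changed by less than their standard errors, and the other 4 genes ran from -0.15 (Pfkm) to 0.51 (Hk2). Without S07 Slc16a1 turned to 0.0057, and the others were 0.03 for Slc16a8, 0.20 for Hk1, 0.43 for Hk2, 0.29 for Pkm and -0.15 for Pfkm. Without S09, which had the highest Ldha and Ldhb values and the lowest Pfkm value in RPE, Ldha was 0.58 and Ldhb 0.28, and the sign turned for Pfkm (0.093) and Slc16a8 (-0.023).

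**Figure D4:**
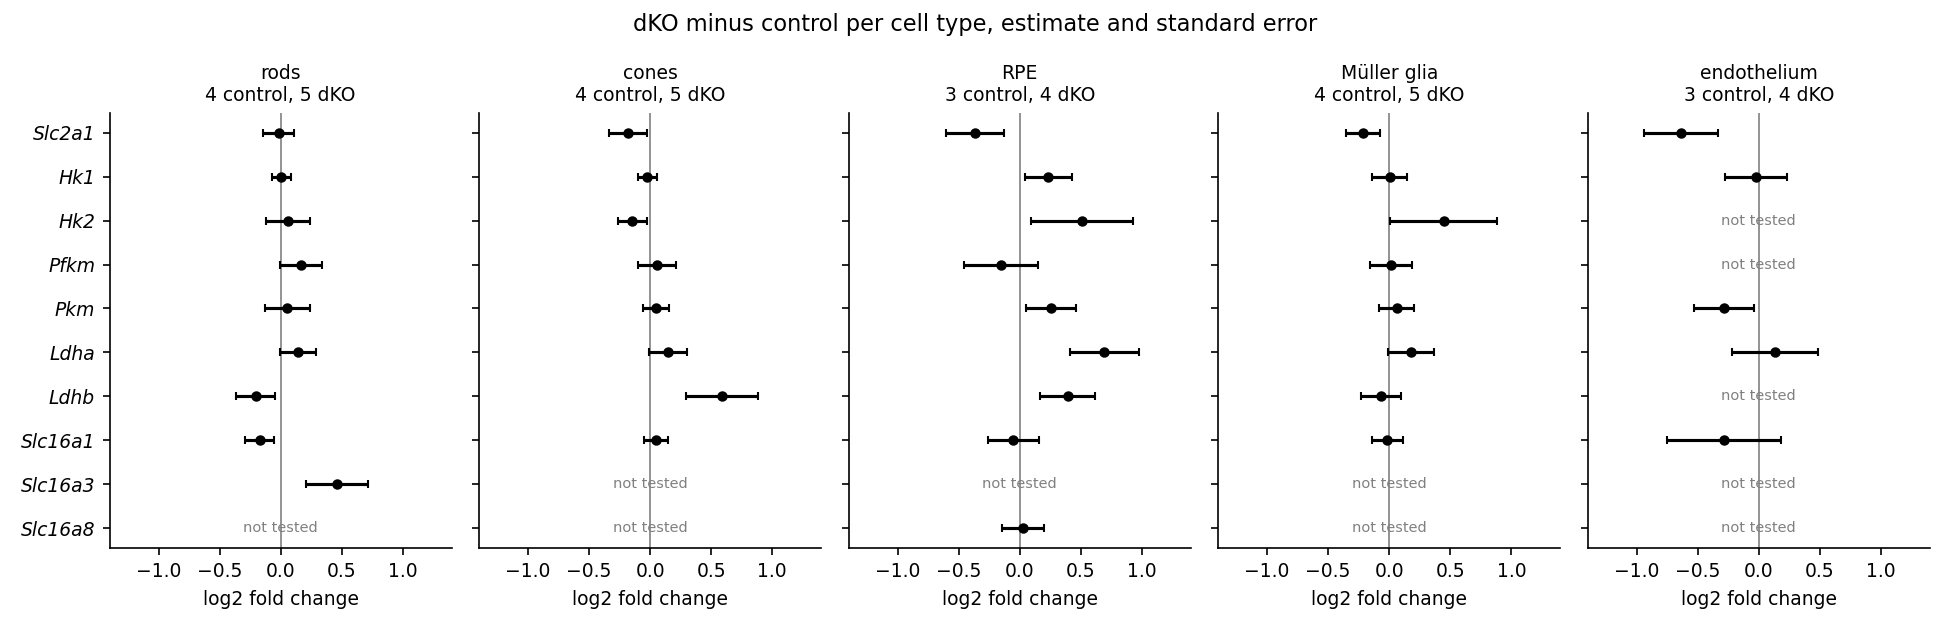
Log2 fold change of dKO against control (horizontal axis) for each of the 10 genes (vertical axis) in 5 cell types (panels, with the number of mice above), as points with the SE derived from the F statistic, genes below the count filter being marked as not tested. No gene passes the threshold in any type, and Ldha in RPE (0.69) and Slc2a1 in endothelium (-0.64) lie farthest from 0.

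Endothelial Slc2a1 was 2351, 3748 and 3559 CPM in control S01, S02 and S03, and 3235, 1379, 1778 and 1990 CPM in dKO S06, S07, S08 and S09. S07, S08 and S09 stood below all controls and S06 among them, and the log2 fold change was -0.64 (SE 0.30, unadjusted p 0.0606, adjusted p 1.0), which ran from -0.94 to -0.17 over 18 alternatives. In cones Ldhb was 10.7, 9.57, 5.97 and 10.1 CPM in control S01 to S04, and 12.7, 10.1, 6.47, 16.3 and 18.7 CPM in dKO S05 to S09, with S08 and S09 high and S07 among the controls (0.59, SE 0.30, unadjusted p 0.0678, adjusted p 1.0). Without S04, S05 and S07 the log2 fold change of Ldhb in cones was 0.79 (unadjusted p 0.0251, adjusted p 1.0), and that of endothelial Slc2a1 was -0.48. In Müller glia Hk2 was 24.98, 13.5, 12.1 and 11.8 CPM in control S01 to S04, and 65.7, 10.5, 40.9, 17.1 and 19.6 CPM in dKO S05 to S09, and the high values were those of S05 and S07, while S04, which like them was rich in rods, had the lowest control value. The log2 fold change of Hk2 in Müller glia was 0.44 (SE 0.44) and turned to -0.12 without S04, S05 and S07. In rods the 9 genes tested ran from -0.20 (Ldhb) to 0.46 (Slc16a3, unadjusted p 0.0924). Without S04, S05 and S07 no gene of the 10 passed in any type either, and Slc2a1 in Müller glia had the lowest unadjusted p there (-0.36, unadjusted p 0.00210, adjusted p 1.0). With all mice its log2 fold change in Müller glia was -0.21 (SE 0.14, unadjusted p 0.156). Not tested for low counts were Slc16a8 outside RPE, Slc16a3 outside rods, and Hk2, Pfkm and Ldhb in endothelium.

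The other pathway genes showed 0 calls in dKO mice in any type. In RPE 34 of the 43 were tested, 27 had a log2 fold change above 0 with a median of 0.24 (all genes -0.01), and in the lower part of glycolysis 9 of 10 were above 0 with a median of 0.39. In the other types the medians lay between 0.01 in Müller glia and 0.05 in endothelium. With the RPE median of all 9651 genes at -0.01, no more of them lay above 0 than below. The RPE counts of the lists include S07 and S09, were not repeated without them and were not tested as a set. In RPE 5 of the 34 had an unadjusted p below 0.05, beside 435 of all 9651 genes, and these 5 were chosen for mention after their values were seen. Below that p stood 2 of the 36 tested in rods, 1 of 19 in endothelium, 0 of 30 in cones and 0 of 36 in Müller glia. Txnip (1.61) was 11.03, 11.4 and 6.12 CPM in control S01, S02 and S03, and 15.0, 194.5, 21.4 and 41.5 CPM in dKO S06, S07, S08 and S09, above the controls in all 4 dKO mice, and passed in 1 alternative, with no filter on low counts. Without S07, whose Txnip value rests on 7 UMIs, it was 1.41. Pdk4 (-1.50), Vhl (-0.87), Pdha1 (0.82) and Nxnl1 (0.83) passed in none, and without S07 they were -1.57, -0.92, 0.89 and 0.83. Against the fitted signs, S07 stood above all controls for Pdk4 and Vhl (27.8 CPM, 1 UMI each) and below them for Pdha1 (0 UMIs), S06 and S09 lay above the lowest control for Pdk4 (6.02 and 4.05 against 3.81 CPM), S06 and S08 for Vhl (6.39 and 6.50 against 5.71 CPM), and S06 lay below the highest control for Pdha1 (48.9 against 54.2 CPM). For Nxnl1 the dKO mice stood at 17.5 to 29.4 CPM and the controls at 6.66 to 17.3 CPM.

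The change in RPE was also tested against the change in each other type, over 15524 genes in a single fit with mouse as a block. None of the 10 genes passed against any type. Against rods 0 genes passed (0%) and against endothelium 0 (0%), with 726 and 1109 at an unadjusted p below 0.05 by edgeR. Against cones and against Müller glia 1 gene passed (0.00644% each), which was Prelid3a in both, a gene outside the pathway (3.20, SE 0.57, adjusted p 0.0432, and 3.15, SE 0.55, adjusted p 0.0344), with 735 and 742 at an unadjusted p below 0.05. No other tool was run on this test. In RPE Prelid3a was 1.84, 0.952 and 1.31 CPM in control S01, S02 and S03, and 9.78, 0, 21.4 and 9.12 CPM in dKO S06, S07, S08 and S09, above the controls in 3 of the 4 dKO mice. Its call against cones was lost without S01 (3.55), S02 (2.82), S03 (3.38), S07 (3.26), S08 (2.75) or S09 (3.37), and against Müller glia without S01 (3.45), S02 (3.02), S03 (3.09), S04 (3.15), S07 (3.16) or S08 (2.75). Leaving out S06 raised the number of genes passing to 5, 5, 7 and 1 against rods, cones, Müller glia and endothelium. The difference for Ldha was 0.55 against rods, 0.56 against cones, 0.54 against Müller glia and 0.56 against endothelium, with unadjusted p from 0.0792 to 0.170. Ldhb in RPE against endothelium gave 1.49 (SE 0.62, unadjusted p 0.0225, adjusted p 0.640), on 25 endothelial UMIs.

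For 6 of the 10 genes, the genes whose levels ran most like theirs are given, found by Pearson's r of log2 CPM plus 1 over the 41 sums, among 9552 genes with a mean of at least 10 CPM. The sums share mice, libraries and depth, so r describes the order of types and carries no p. Slc2a1 was most like Piezo1 (0.975), Lrch1 and Fermt2, and Hk2 most like Rbp3 (0.976), Slc17a7 and Syp. Pkm was most like Zdhhc2 (0.954), Nxnl1 and Bicdl1, and Pfkm most like Dennd2a (0.845), Tef and Gm14858. Slc16a8 was most like Capn6 (0.979), Gm13266 and Slc7a10, and Ldhb most like Rrh (0.894), Pdk2 and Rlbp1, of which Rrh and Rlbp1 served in the assignment of types. Slc16a3 was below the minimum level and has no such genes.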

How the data were processed

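Both retinas of 4 control and 5 dKO mice were measured. The raw UMI counts per gene and cell were made by the authors with split-pipe on GRCm39, with sublibraries merged and cells and genes of few counts removed, before they were deposited. The authors used R 4.2.2 and Seurat 4.3.0 further on, which was not used here. The members and lists were chosen with earlier results of these data known.

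Cells were assigned by marker UMIs per 10000 UMIs, with minimums of 20 (rods), 25 (cones), 25 (RPE), 40 (Müller glia) and 50 (endothelium) and at least 3 markers detected, set by eye from the marker distributions. Cells passing the lists of more than 1 of 13 types, 1473 cells, were left out, and 3908 passed none. UMIs were summed per mouse and type (at least 10 cells) and tested with edgeR 4.0.16 in R 4.3.3 (TMM, filterByExpr, quasi-likelihood F tests, mouse as a block across types, Benjamini-Hochberg over all genes tested, adjusted p below 0.05). The sums ran from 35986 UMIs in RPE (S07) upward, so that 1 UMI is 27.8 CPM there. The tests were tested on simulated data. Cell shares were compared by exact permutation. Alternatives were DESeq2 1.42.0, limma-voom 3.58.1, library size, no filter, no block, control mice only, Xist as a covariate, S06 and S07 summed, other choices of cells (marker minimum times 2, top 5% by UMIs or upper quartile of rod RNA left out, no minimum of cells), a log2 threshold of 1 and each mouse left out.

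Named are the 10 genes, from each of 5 lists of 43 other pathway genes those past the threshold with the largest changes (up to 3 per list and contrast) and isozymes of the same steps, the 3 genes most like each member (not reported for Hk1, Ldha and Slc16a1), genes past the threshold in dKO comparisons (up to 5 by p) and markers. The lists are glucose entry and hexokinases, phosphofructokinases and their regulators, lower glycolysis, lactate and pyruvate handling, and regulators. Promoters and microRNAs came from RefSeq tables on GRCm38.p6, untranslated regions and lengths from GENCODE M39 on GRCm39, and positions of the 2 builds were not compared. Python 3.11.15, numpy 2.4.6, scipy 1.17.1, pandas 2.3.3 and matplotlib 3.10.9 were used.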

Additional observations from a re-analysis of the deposited data

Results flagged for a closer look

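Of 112 groups of 4 or 5 mice, 9 held a mouse far from the others by Dixon's test, where chance gives about 1 in 20 (5.6 groups) for normally distributed values. Some groups here rest on 0 or 1 UMI and the groups share mice, so 9 cannot be weighed against 5.6. In Müller glia, Slc2a1 was 353 CPM in dKO S07 against 233 to 258 CPM in the other dKO mice, Hk2 was 24.98 CPM in control S01 against 11.8 to 13.5 CPM, and Slc16a3 was 15.9 CPM in dKO S05 against 0.842 to 1.90 CPM. In RPE, Slc16a3 was 0.376 CPM in dKO S06 (1 UMI) against 0 in the other dKO mice. In rods of dKO mice, Ldha made up 93.7% of Ldha and Ldhb UMIs in S09 against 95.5% to 96.1%.

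The other 4 came from the Müller glia of control S04, which number 20 cells, 0.738% of its cells against 7.50% to 8.31% in the other controls. There Slc16a8 was 3.93 CPM (1 UMI) against 0 to 0.229 CPM, its share of the 3 transporters 3.03% against 0% to 0.164%, and the share of Ldha 18.8% (3 of 16 UMIs) against 43.2% to 45.8%.

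Prelid3a differed between types in its dKO change, by 3.20 on the log2 scale for RPE minus cones and 3.15 for RPE minus Müller glia, each by a test of the difference. The cause of these values was not tested.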

How the results depend on the processing

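Of 4075 values of named genes under alternatives, 3854 kept direction and side of the threshold, 73 kept direction but lost the call, 10 gained it and 138 changed sign. Of 360 values of the comparisons, 297 stayed within 1.5 times the count or within the spread, 50 moved and 13 changed sign. Of the 151 sign changes, 0 were past the threshold as first computed and 0 under the alternative. The cause was not tested for any of them. Control and dKO mice share no replicate numbers, so no pairing was possible. S04 and S05 gave no RPE or endothelial sum, so leaving them out changes those results only through the fit over all types. The removal of S04, S05 and S07 together, leaving out each mouse for the shares and the all-exon length were chosen after seeing the data. In what follows a type alone stands for dKO against control in that type, and "minus" for the difference of 2 dKO changes.

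Counts of genes past the threshold, with each mouse left out in turn, ran from 0 to 1 for rods, 0 to 1 for cones, 0 to 17 for RPE, 0 to 1 for Müller glia, 0 to 1 for endothelium, 0 to 5 for RPE minus rods, 0 to 5 for RPE minus cones, 0 to 7 for RPE minus Müller glia and 0 to 1 for RPE minus endothelium. Log2 fold changes whose sign turned in dKO against control, with each mouse left out in turn, ran from -0.061 to 0.18 for Hk2 in rods, -0.096 to 0.056 for Slc2a1 in rods, -0.067 to 0.22 for Pkm in rods, -0.035 to 0.036 for Hk1 in rods, -0.015 to 0.11 for Pkm in cones, -0.014 to 0.12 for Slc16a1 in cones, -0.045 to 0.13 for Pfkm in cones, -0.061 to 0.012 for Hk1 in cones, -0.17 to 0.037 for Slc16a1 in RPE, -0.023 to 0.087 for Slc16a8 in RPE, -0.43 to 0.093 for Pfkm in RPE, -0.16 to 0.046 for Ldhb in Müller glia, -0.034 to 0.14 for Pkm in Müller glia, -0.096 to 0.047 for Slc16a1 in Müller glia, -0.088 to 0.092 for Pfkm in Müller glia, -0.068 to 0.073 for Hk1 in Müller glia, -0.59 to 0.44 for Slc16a1 in endothelium, -0.25 to 0.15 for Hk1 in endothelium and -0.11 to 0.31 for Ldha in endothelium. Log2 fold changes whose sign turned in the comparisons of types, with each mouse left out in turn, ran from -0.039 to 0.18 for Ldhb in cones against rods, -0.025 to 0.15 for Slc16a1 in Müller glia against rods and -0.048 to 0.17 for Pfkm in endothelium against rods. Log2 fold changes whose sign turned in the differences of dKO changes, with each mouse left out in turn, ran from -0.019 to 0.40 for Pkm in RPE minus rods, -0.17 to 0.11 for Slc16a1 in RPE minus rods, -0.46 to 0.031 for Slc16a8 in RPE minus rods, -0.0058 to 0.33 for Pkm in RPE minus cones, -0.25 to 0.55 for Hk2 in RPE minus Müller glia, -0.38 to 0.041 for Slc2a1 in RPE minus Müller glia, -0.84 to 0.90 for Slc16a8 in RPE minus Müller glia, -0.64 to 0.20 for Hk2 in RPE minus endothelium, -0.13 to 0.37 for Slc2a1 in RPE minus endothelium, -0.49 to 0.39 for Slc16a1 in RPE minus endothelium, -0.30 to 5.22 for Slc16a8 in RPE minus endothelium and -0.60 to 0.17 for Pfkm in RPE minus endothelium. Differences in cell share, in points, ran from -6.81 to 10.98 for rods, -0.450 to 0.107 for RPE, -1.12 to 2.05 for Müller glia and -0.0228 to 0.216 for endothelium. With limma-voom, counts past the threshold were 1 for cones, 0 for RPE, and log2 fold changes of turned sign were 0.043 for Slc2a1 in rods, -0.0063 for Hk1 in Müller glia and 0.012 for Hk1 in endothelium. With no filter on low counts, counts past the threshold were 49 for cones, 56 for RPE, 5 for Müller glia, 128 for endothelium, and log2 fold changes of turned sign were -0.00019 for Hk1 in rods, -0.0012 for Slc16a8 in RPE, -0.012 for Hk1 in Müller glia, 0.022 for Hk1 in endothelium, -0.046 for Ldhb in cones against rods, -0.053 for Slc16a1 in Müller glia against rods and -0.15 for Pfkm in endothelium against rods. With S04, S05 and S07 left out together, counts past the threshold were 1 for cones, 0 for RPE, 1 for Müller glia, and log2 fold changes of turned sign were -0.095 for Hk2 in rods, -0.0044 for Pkm in rods, -0.058 for Hk1 in rods, 0.0057 for Slc16a1 in RPE, -0.12 for Hk2 in Müller glia, 0.038 for Ldhb in Müller glia, -0.021 for Hk1 in Müller glia, 0.0014 for Slc2a1 in cones against rods, 0.0089 for Slc16a1 in cones against rods and -0.017 for Pfkm in endothelium against rods. With DESeq2, counts past the threshold were 2 for RPE. With S06 and S07 summed as 1 mouse, counts past the threshold were 0 for RPE, and log2 fold changes of turned sign were 0.0057 for Slc16a1 in RPE, 0.028 for Slc16a1 in Müller glia, -0.0069 for Pfkm in Müller glia, -0.051 for Hk1 in Müller glia and 0.025 for Hk1 in endothelium. With Xist as a covariate, counts past the threshold were 0 for RPE, and log2 fold changes of turned sign were -0.048 for Hk2 in rods, 0.0043 for Slc2a1 in rods, -0.043 for Pkm in rods, -0.023 for Hk1 in rods, 0.0057 for Slc16a1 in RPE, 0.023 for Slc16a1 in Müller glia, -0.0098 for Pfkm in Müller glia and -0.053 for Hk1 in Müller glia. Without the cells in the top 5% by UMIs, counts past the threshold were 6 for RPE, and log2 fold changes of turned sign were 0.034 for Slc2a1 in rods, 0.21 for Slc16a1 in RPE, -0.0091 for Hk1 in Müller glia, 0.076 for Slc16a1 in endothelium, 0.017 for Hk1 in endothelium and -0.0092 for Slc16a1 in Müller glia against rods. With the stricter gate, counts past the threshold were 0 for RPE, and log2 fold changes of turned sign were 0.0093 for Slc2a1 in rods, 0.035 for Slc16a1 in RPE, 0.025 for Ldhb in Müller glia, -0.052 for Hk1 in Müller glia, 0.16 for Hk1 in endothelium and -0.099 for Ldha in endothelium. With the upper quartile of cells by rod RNA left out, counts past the threshold were 0 for RPE, and log2 fold changes of turned sign were -0.0022 for Pfkm in cones, -0.028 for Slc16a8 in RPE, 0.042 for Slc16a1 in Müller glia, -0.041 for Pfkm in Müller glia, -0.055 for Ldha in endothelium, 0.018 for Slc16a1 in cones against rods and -0.083 for Pfkm in endothelium against rods. With no minimum of cells, counts past the threshold were 12 for RPE, and log2 fold changes of turned sign were 0.061 for Hk1 in endothelium and -0.27 for Ldha in endothelium. With a log2 fold change above 1 or below -1 required as well, counts past the threshold were 2357 for cones against rods, 6092 for Müller glia against rods, 6664 for RPE against rods and 5144 for RPE against Müller glia. With library size in place of TMM, counts past the threshold were 1 for RPE minus rods, and log2 fold changes of turned sign were 0.015 for Slc2a1 in rods, 0.0036 for Slc16a1 in Müller glia, 0.00094 for Hk1 in endothelium, -0.032 for Hk1 in RPE against endothelium and 0.077 for Slc16a1 in RPE minus rods. With control mice only, log2 fold changes were -0.29 for Ldhb in cones against rods, -0.014 for Slc16a1 in Müller glia against rods and 0.0048 for Slc16a8 in endothelium against rods.

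Of the log2 fold changes that changed sign, those that started farthest from 0 were 4.36 for Slc16a8 in RPE minus endothelium, -1.38 for Slc16a8 in endothelium against rods (1 endothelial UMI), 0.44 for Hk2 in Müller glia, -0.28 for Slc16a1 in endothelium, -0.28 for Slc16a8 in RPE minus rods and 0.26 for Hk2 in RPE minus Müller glia, and of the cell shares Müller glia, at 0.668 points.
Depth limits the RPE and endothelium, with 320 and 194 cells over all mice, and there Slc16a3 in RPE (3 UMIs), Slc16a8 in endothelium (1 UMI) and Ldhb in endothelium (25 UMIs) rest on few molecules. RNA of rods in other sums was set beside check markers but not subtracted. Counts of a gene do not tell its protein, its splice forms or its flux.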
